A study of Homo sapiens with 6 samples.

Results

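The genes described here are 40 members of the integrated stress response and of amino acid supply: ATF4-linked transcription factors and effectors, enzymes that make amino acids, amino acid transporters and cytosolic tRNA synthetases. They were chosen as a list of gene names, with earlier results of these data known. The shares given below therefore describe the list and are no independent test of it. Of the 40, 39 had a mean of at least 50 estimated counts over the 6 libraries and were measured among 11909 such genes. NUPR1, a small stress-induced chromatin protein, had a mean of 11.7 counts and is not described further. RNA came from J82, an established human bladder cancer cell line, in a tet-control line and a tet-ZFP36L1 line, in which ZFP36L1 is placed under doxycycline control. ZFP36L1 is an RNA-binding protein that binds AU-rich elements and shortens the life of mRNAs. Each line was sampled without doxycycline (0 h) and after 6 h and 24 h in doxycycline at 1 µg/mL, so that both lines received the drug, and each of the 6 groups held 1 library. Whether either line is 1 clone was not given in the sources used here. The tet-control line carries the doxycycline exposure, time in culture and handling without the ZFP36L1 induction.

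In the integrated stress response, kinases that sense amino acid shortage, unfolded protein, viral RNA or haem shortage phosphorylate the initiation factor eIF2. General translation then slows while translation of ATF4 mRNA increases, so ATF4 protein can change with little change of its own mRNA. ATF4, with C/EBP partners, binds C/EBP-ATF response elements and raises genes for amino acid synthesis, amino acid uptake and tRNA charging, as well as feedback genes that end the response. Only RNA was measured here, so eIF2 phosphorylation and ATF4 protein were not analysed here.

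The core of the C/EBP-ATF response element, TGATGNAA, was searched on both strands of RefSeq promoters (assembly GRCh38.p14) from 250 bases before to 50 bases after the start. It was present in 13 of the 34 members with a promoter in the table (38.2%), against 4.46% of 27305 genes. The form TGATGCAA, which is contained in TGATGNAA, was present in 9 of the 34 members (26.5%) against 1.08% of genes. A gene was counted when any of its promoters matched. The 34 members had 52 promoters, and the 27305 genes, measured here or not, had 35116. Because the members were listed partly as ATF4-linked genes, the higher share is no independent support for the list. A match is a description of letters and not a binding site. The following 6 are shown because their cores lie at least 33 bases upstream of the start, each read 5′ to 3′ on the strand of the gene, with the matched core in capitals. CHAC1 is at chr15:40953244-40953287 on the plus strand, ASNS at chr7:97872451-97872494 on the minus strand, GARS at chr7:30594827-30594870 on the plus strand, CEBPG at chr19:33374053-33374096 on the plus strand, SLC1A5 at chr19:46784886-46784929 on the minus strand and AARS at chr16:70289668-70289711 on the minus strand.
CHAC1: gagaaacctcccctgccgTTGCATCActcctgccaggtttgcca
ASNS: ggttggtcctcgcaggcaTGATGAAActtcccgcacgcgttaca
GARS: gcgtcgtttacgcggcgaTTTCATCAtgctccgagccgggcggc
CEBPG: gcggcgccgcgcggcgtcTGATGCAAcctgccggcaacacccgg
SLC1A5: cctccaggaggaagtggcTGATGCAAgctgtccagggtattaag
AARS: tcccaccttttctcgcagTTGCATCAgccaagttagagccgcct
The cores of CHAC1, GARS and AARS are on the strand opposite to the gene and so read as the reverse complement. In ASNS the core begins 68 bases before the start, in GARS 33, in CEBPG 42, in SLC1A5 97, in AARS 187 and in CHAC1 209. The other members with TGATGNAA were CARS, IARS, MARS, NARS, SLC1A4, SLC3A2 and SLC7A1.

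Libraries held 20739025 to 21380480 estimated counts. Levels are CPM, the counts of a gene per 1000000 counts of its library, scaled by TMM, a factor that equalises most genes between libraries, and changes are differences of log2(CPM + 0.5) with a 95% interval that covers counting error only. A member was counted as higher or lower when it differed by at least 1.5-fold. With 1 library in each group the spread between cultures is unknown, no difference was tested, and less RNA per cell cannot be told apart from fewer cells of a kind. ZFP36L1 itself stood at 206 to 234 CPM in the 3 tet-control libraries, and in tet-ZFP36L1 it was measured as 220.2 CPM without the drug, 3127 CPM after 6 h and 3133 CPM after 24 h. Keratins KRT8 (258 to 753 CPM) and KRT18 (364 to 764 CPM) were present. The 3 mesenchymal markers summed to 1179 to 13630 CPM and were all present: VIM at 722 to 1490 CPM, CDH2 at 74.9 to 251 CPM, and FN1 at 382, 717 and 392 CPM in the tet-control libraries and 9910, 11900 and 2660 CPM in the tet-ZFP36L1 libraries, each at 0, 6 and 24 h. Of 10 bladder and epithelial markers, 5 had a mean of at least 1 CPM, and UPK2, a urothelial plaque protein, was at 0 in all 6 libraries. The other summed markers ranged from 693.4 to 1616 CPM for the bladder and epithelial list, from 1.291 to 28.28 CPM for the leukocyte list, mostly CD68, from 7.919 to 19.75 CPM for the fibroblast list, mostly COL1A1, and up to 0.985 CPM for the endothelial list, and the part of all these markers in the results was not tested. The tet-ZFP36L1 library at 24 h had a TMM factor of 1.115, where the other 5 had 0.941 to 1.006.

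In tet-control at 6 h, 17 of the 39 members (43.6%) were at least 1.5-fold higher than at 0 h, where 7.47% of all measured genes were. GDF15 alone was at least 1.5-fold lower (2.56% of members), where 7.72% of all genes were. The median change of the members was 0.50 on the log2 scale, against -0.01 for all genes, and 31 of the 39 were above 0. With CPM not scaled by TMM the shares of all genes were 5.83% higher and 10.1% lower, and 13 members were higher. CHAC1, ASNS and SLC7A5 were more than 2-fold higher, a size reached by 2.43% of all genes. In tet-control at 24 h, by contrast, 0 members were higher (1.6% of all genes) and 1, GDF15, was lower (1.92% of all genes), with a median of -0.02. With deposited TPM those shares of all genes were 1.84% and 3.48%. The 6 h and 24 h comparisons share the 0 h library. Measured without it, 24 h against 6 h in tet-control had a median of -0.52 and 31 of 39 members below 0, against a median of 0.01 for all genes. Of the members, 30 (76.9%) had their highest of 3 levels at 6 h, against 40.7% of all genes.

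**Figure D1:**
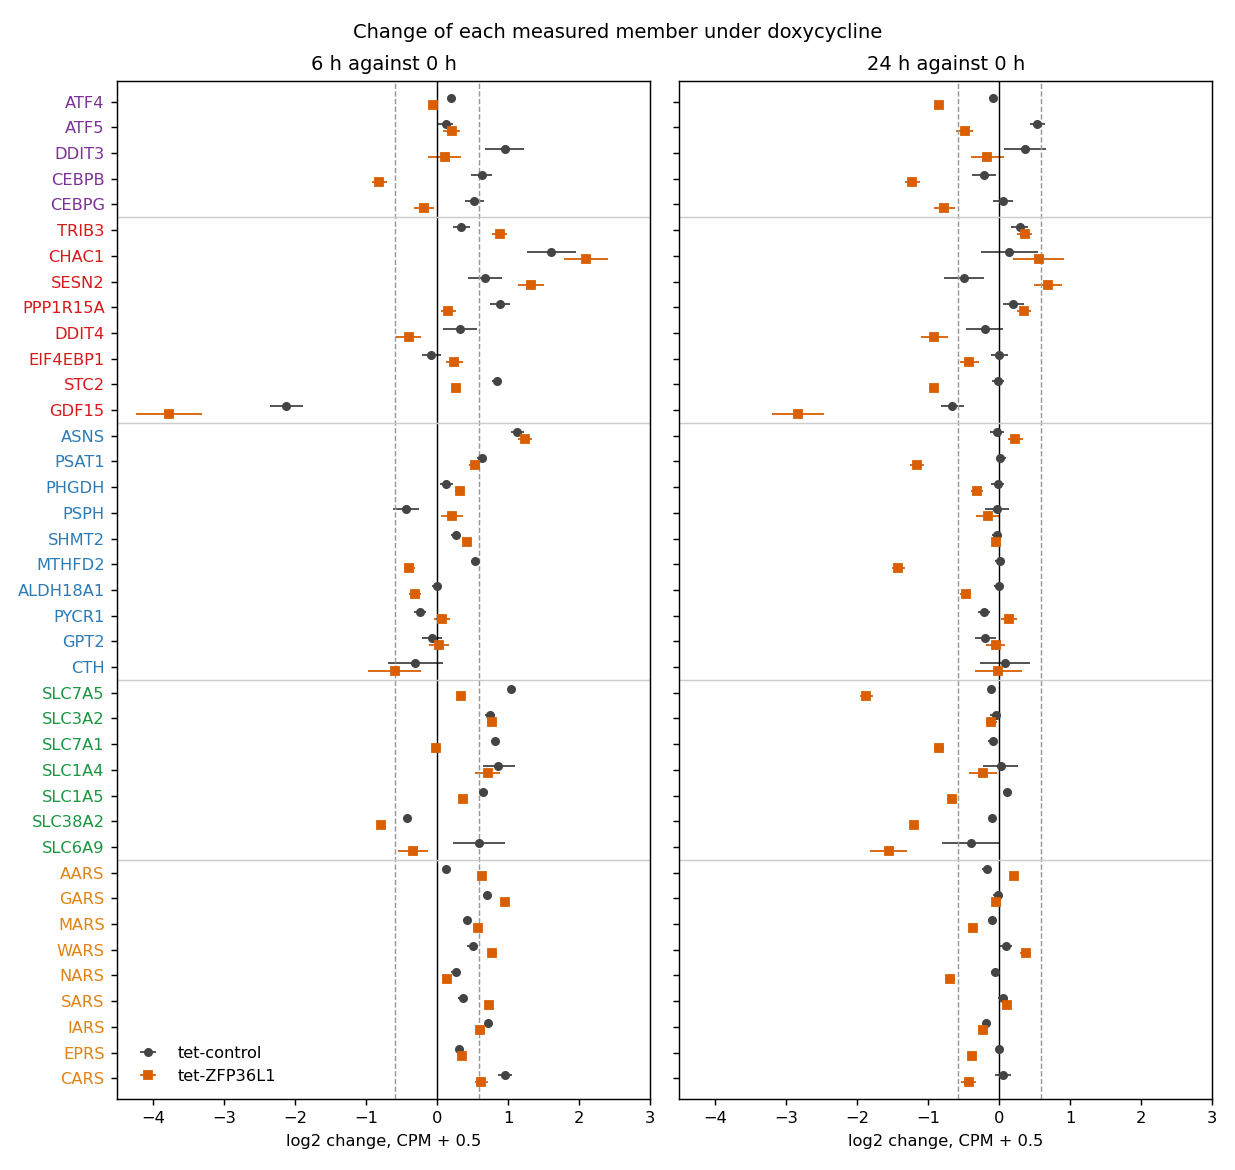
Log2 change from 0 h (x axis, log2 of CPM + 0.5) of the 39 measured members at 6 h (left) and 24 h (right) in tet-control (grey circles) and tet-ZFP36L1 (orange squares). Bars are 95% intervals of counting error, and dashed lines mark 1.5-fold; in tet-control 17 members lie right of the dashed line at 6 h and 0 at 24 h.

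Among the transcription factors, ATF4 RNA in tet-control had levels of 408.4, 466.6 and 382.9 CPM, in the order 0, 6 and 24 h used throughout, and in tet-ZFP36L1 levels of 497.6, 477.0 and 278.7 CPM. Its 6 h change in tet-control was 0.19 (0.15 to 0.24), below the 1.5-fold limit, while the 24 h change in tet-ZFP36L1 was -0.84 (-0.88 to -0.79). By TPM, a scale per transcript length, ATF4 was the most abundant member at 393 in tet-control at 0 h, followed by SLC38A2 at 290.5 and MARS at 184.2. DDIT3, which encodes the stress factor CHOP, stood at 7.347, 14.61 and 9.618 CPM in tet-control, from 148, 273 and 190 counts, a 6 h change of 0.95 (0.67 to 1.22). In tet-ZFP36L1 it was already at 13.46 CPM at 0 h and stood at 14.52 and 11.94 CPM afterwards. CEBPB, a C/EBP factor that pairs with ATF4, was at 29.24, 45.59 and 25.21 CPM in tet-control and at 110.4, 62.83 and 47.14 CPM in tet-ZFP36L1. Its 6 h directions in the lines were opposite, at 0.63 (0.48 to 0.78) in tet-control and -0.81 (-0.91 to -0.71) in tet-ZFP36L1, each past the 1.5-fold limit. CEBPG, another C/EBP partner, had a 6 h change of 0.52 (0.39 to 0.66) in tet-control and -0.19 (-0.33 to -0.05) in tet-ZFP36L1. ATF5, a paralogue of ATF4, had its largest tet-control value at 24 h, 89.85 CPM against 61.56 at 0 h, and stood at 40.82 CPM in tet-ZFP36L1 at 24 h.

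Among the feedback genes and effectors, CHAC1, an enzyme that degrades glutathione, had the highest 6 h change of any member in each line. It stood at 3.574, 11.88 and 3.999 CPM in tet-control (72, 222 and 79 counts) and at 4.076, 19.08 and 6.224 CPM in tet-ZFP36L1 (83, 368 and 136 counts). Its 6 h level was 3.04-fold that at 0 h in tet-control and 4.28-fold in tet-ZFP36L1, with log2 changes of 1.60 (1.26 to 1.95) and 2.10 (1.79 to 2.41). SESN2, a leucine-sensing inhibitor of the growth kinase complex mTORC1, was at 10.47, 17.02 and 7.289 CPM in tet-control and at 15.42, 39.25 and 25.17 CPM in tet-ZFP36L1. SESN2 was the single member still at least 1.5-fold higher in tet-ZFP36L1 at 24 h, at 0.69 (0.49 to 0.88). PPP1R15A, the stress-induced subunit that directs dephosphorylation of eIF2, was at 33.26, 61.75 and 38.37 CPM in tet-control and at 67.91, 76.16 and 86.59 CPM in tet-ZFP36L1. Its 6 h change was 0.88 (0.75 to 1.02) in tet-control and 0.16 (0.06 to 0.27) in tet-ZFP36L1, which began 2.03-fold higher. TRIB3, a pseudokinase that feeds back on ATF4, was at 50.98, 64.53 and 62.46 CPM in tet-control and 55.83, 103.6 and 71.94 CPM in tet-ZFP36L1, higher at 6 h by the 1.5-fold limit in tet-ZFP36L1.

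STC2, a secreted glycoprotein, was at 109.8, 197.4 and 108.7 CPM in tet-control and at 324.1, 391.9 and 170.6 CPM in tet-ZFP36L1. Its tet-control level was higher at 6 h by 0.84 (0.77 to 0.92) and at -0.01 at 24 h, whereas in tet-ZFP36L1 it was lower by 24 h, at -0.92 (-0.98 to -0.87). DDIT4, an inhibitor of mTORC1 activity, had 6 h values of 0.32 for tet-control and -0.40 for tet-ZFP36L1. EIF4EBP1, a repressor of cap-dependent translation, had -0.08 and 0.24 in the same order of lines. GDF15, a secreted stress cytokine usually listed among ATF4 targets, went the other way from the group. It was at 39.66, 8.722 and 24.90 CPM in tet-control (799, 163 and 492 counts) and at 18.37, 0.8813 and 2.151 CPM in tet-ZFP36L1 (374, 17 and 47 counts). Its 6 h change was -2.12 (-2.35 to -1.89) in tet-control and -3.77 (-4.23 to -3.31) in tet-ZFP36L1.

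**Figure D2:**
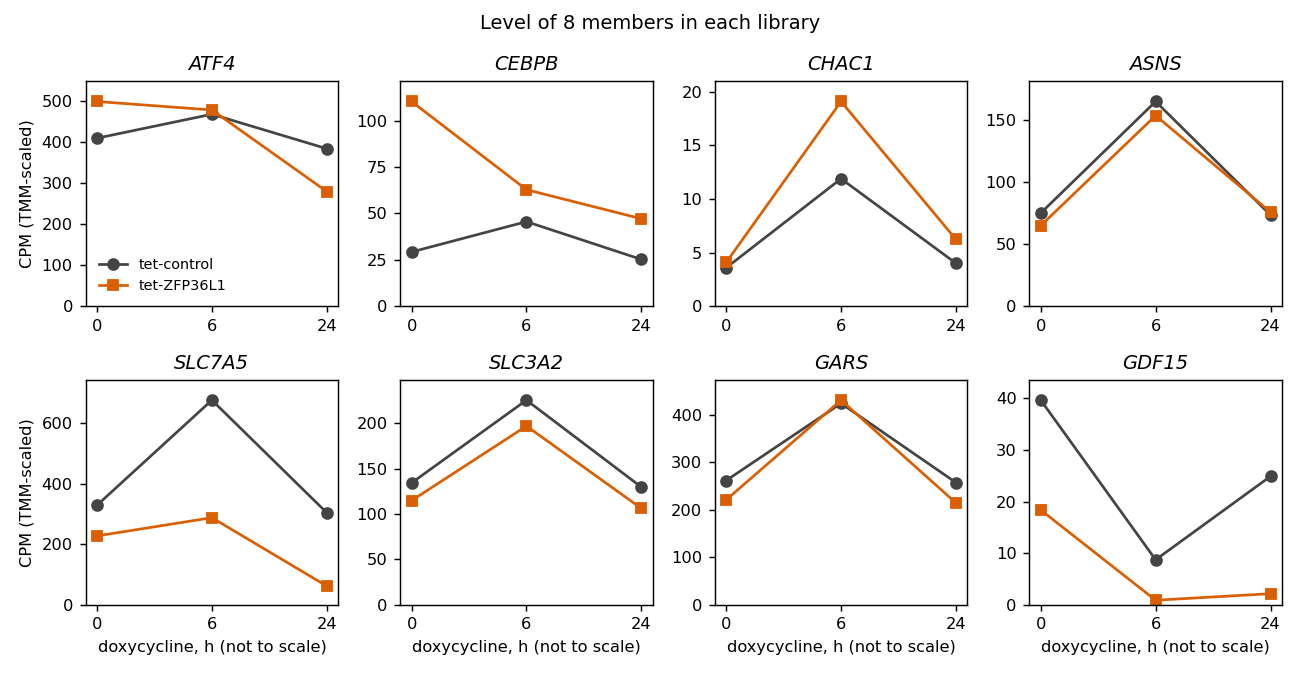
Level in CPM (y axis, from 0) of 8 members in the 3 libraries of tet-control (grey) and of tet-ZFP36L1 (orange), with 1 library at each point and lines drawn only to guide the eye. CHAC1 and ASNS peak at 6 h in both lines, SLC7A5 reaches 677.3 CPM in tet-control alone, and GDF15 is lowest at 6 h in both.

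Of 10 enzymes of amino acid synthesis and one-carbon metabolism, ASNS and PSAT1 (20%) were counted higher in tet-control at 6 h, where 7.47% of all genes were. The median change of the 10 was 0.06, and from -0.02 to 0.13 under the alternative settings. ASNS, which makes asparagine from aspartate and glutamine, was at 74.86, 164.6 and 73.24 CPM in tet-control and at 64.77, 153.3 and 75.60 CPM in tet-ZFP36L1. The 6 h level was 2.19-fold and 2.36-fold that at 0 h, and both lines were close to their start again at 24 h. PSAT1, the aminotransferase of serine synthesis, was at 139.0, 215.1 and 141.3 CPM in tet-control and 130.6, 188.2 and 58.39 CPM in tet-ZFP36L1, with 6 h changes of 0.63 (0.56 to 0.70) and 0.53 (0.45 to 0.60). At 24 h PSAT1 was lower in tet-ZFP36L1, at -1.15 (-1.25 to -1.06). The first and last enzymes of the same pathway, PHGDH and PSPH, had 6 h changes of 0.13 and -0.44 in tet-control. MTHFD2, the mitochondrial one-carbon dehydrogenase, was at 153.7, 224.1 and 154.5 CPM in tet-control and at 140.3, 106.8 and 52.31 CPM in tet-ZFP36L1. Its 6 h changes were 0.54 (0.48 to 0.61) and -0.39 (-0.47 to -0.31), and its 24 h change in tet-ZFP36L1 was -1.42 (-1.51 to -1.32). SHMT2, the serine hydroxymethyltransferase of mitochondria, had 6 h changes of 0.26 and 0.42. The proline enzymes ALDH18A1 and PYCR1, the alanine transaminase GPT2 and the cysteine enzyme CTH had tet-control changes between -0.31 and 0.00 at 6 h.

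The 7 amino acid transporters had the largest median change at 6 h in tet-control, 0.75, and 6 of the 7 were counted higher (7.47% of all genes). SLC7A5, the light chain of the large neutral amino acid exchanger, was at 329.5, 677.3 and 304.7 CPM in tet-control and at 227.9, 288.3 and 62.01 CPM in tet-ZFP36L1. The 6 h change was 1.04 (1.00 to 1.08), or 2.05-fold, in tet-control and 0.34 (0.28 to 0.39) in tet-ZFP36L1. SLC3A2, the heavy chain to which SLC7A5 binds, was at 134.2, 225.3 and 129.6 CPM and at 114.7, 196.8 and 106.1 CPM, with like 6 h changes in both lines, 0.75 (0.68 to 0.82) and 0.78 (0.70 to 0.85). The ratio of SLC7A5 to SLC3A2 in TPM was 0.66, 0.89 and 0.64 at 0, 6 and 24 h in tet-control and 0.53, 0.39 and 0.16 in tet-ZFP36L1. SLC7A1, the cationic amino acid transporter, was at 284.2, 498.2 and 266.4 CPM in tet-control and at 210.8, 208.9 and 117.1 CPM in tet-ZFP36L1, so that its 6 h change was 0.81 (0.76 to 0.86) in one line and -0.01 (-0.07 to 0.05) in the other. SLC1A4 and SLC1A5, exchangers of small neutral amino acids and glutamine, had 6 h changes of 0.86 and 0.65 in tet-control and 0.71 and 0.37 in tet-ZFP36L1. SLC6A9, a glycine transporter, was at 4.269, 6.688 and 3.138 CPM in tet-control and at 19.94, 15.60 and 6.498 CPM in tet-ZFP36L1. Its place among the 6 counted higher rests on 86 counts at 0 h and 125 at 6 h. With deposited TPM its 6 h change in tet-control was 0.44, under the 1.5-fold limit. SLC38A2, a sodium-coupled transporter, was the single one of the 7 below its 0 h level at 6 h in tet-control, where 3 were in tet-ZFP36L1 (SLC38A2, SLC6A9 and SLC7A1, the last at -0.01). It stood at 565.4, 419.1 and 525.9 CPM in tet-control and 490.0, 283.3 and 213.6 CPM in tet-ZFP36L1.

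All 9 tRNA synthetases of the group had 6 h changes above 0 in both lines. Counted higher were 3 in tet-control (7.47% of all genes) and 6 in tet-ZFP36L1 (9.09% of all genes). GARS, which charges glycine tRNA, was at 261.9, 424.5 and 257.6 CPM in tet-control and at 221.1, 431.3 and 214.6 CPM in tet-ZFP36L1, with 6 h changes of 0.70 (0.65 to 0.75) and 0.96 (0.91 to 1.01). IARS, for isoleucine, was at 284.4, 466.8 and 251.4 CPM and at 209.5, 320.6 and 179.5 CPM. CARS, for cysteine, was at 62.35, 121.6 and 64.74 CPM and at 74.40, 114.7 and 55.01 CPM. AARS (alanine), WARS (tryptophan) and SARS (serine) had 6 h changes of 0.13, 0.50 and 0.36 in tet-control and of 0.63, 0.78 and 0.73 in tet-ZFP36L1. MARS, EPRS and NARS, for methionine, glutamate with proline and asparagine, stayed under the 1.5-fold limit at 6 h in both lines. The summed TPM of the 9 synthetases was 1060, 1395 and 946.7 in tet-control and 991.4, 1474 and 983.6 in tet-ZFP36L1.

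In tet-ZFP36L1 at 6 h, 12 of 39 members (30.8%) were higher, where 9.09% of all genes were, and 4 (10.3%) were lower, where 15.6% of all genes were. The median was 0.27. The 4 lower were CEBPB, GDF15, CTH and SLC38A2. Higher in both lines at 6 h were 8 members, CHAC1, SESN2, ASNS, SLC3A2, SLC1A4, GARS, IARS and CARS. They are 47.1% of the 17 in tet-control, where the like share over all genes was 41.3%, so these 2 are close. They are 66.7% of the 12 in tet-ZFP36L1, where the like share over all genes was 34%. Higher in both lines were 20.5% of all members and 3.09% of all genes. These 2 comparisons share no library. Across the 39 members the 6 h changes of the lines had a Pearson r of 0.77 and a Spearman rho of 0.48, and 0.55 and 0.44 without GDF15. Over all 11909 genes r was 0.43 and rho 0.44, and all these points come from the same 4 libraries, so genes are not independent replicates.

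**Figure D3:**
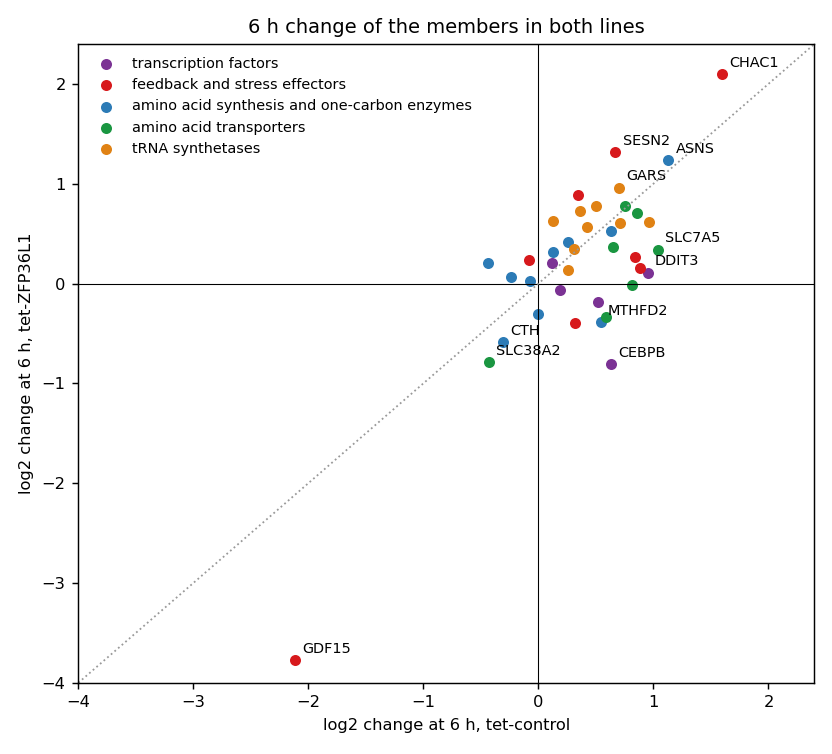
The 6 h log2 change of each of the 39 members in tet-control (x axis) and in tet-ZFP36L1 (y axis), coloured by role, with the dotted line marking equal change. CHAC1 and ASNS lie high in both lines, CEBPB, MTHFD2 and SLC7A5 lie below the line, and GDF15 lies at the lower left at -2.12 and -3.77.

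Before doxycycline the lines differed: 7 members (17.9%) were at least 1.5-fold higher in tet-ZFP36L1 at 0 h, where 10% of all genes were, and 2 (5.13%) were lower, where 7.98% were. The 7 were SLC6A9 (4.29-fold), CEBPB (3.73-fold), STC2 (2.94-fold), DDIT4 (2.31-fold), PPP1R15A (2.03-fold), DDIT3 (1.78-fold) and SLC1A4 (1.73-fold). GDF15 and PYCR1 were the 2 lower, at -1.09 and -0.95. The induction difference subtracts the tet-control change from the tet-ZFP36L1 change, and it therefore contains these starting levels. At 6 h, 10 members (25.6%) had a lower induction difference by 1.5-fold, where 14.3% of all genes did, and 2 (5.13%) had a higher one, where 7.02% did. The 10 were GDF15 (-1.65), CEBPB (-1.44), MTHFD2 (-0.94), SLC6A9 (-0.94), DDIT3 (-0.84), SLC7A1 (-0.82), DDIT4 (-0.73), CEBPG (-0.72), PPP1R15A (-0.72) and SLC7A5 (-0.70). CEBPB, SLC6A9, DDIT4, PPP1R15A and DDIT3 stand in this list with the higher starting levels given above, whereas MTHFD2, CEBPG, SLC7A1 and SLC7A5 began within 1.5-fold of tet-control, at -0.13, 0.22, -0.43 and -0.53. The 2 higher were SESN2 and PSPH, both at 0.65. The median of the 39 was -0.10, and 0.01 when only protein-coding transcripts were counted. Behind the value of SLC7A1 stand a tet-ZFP36L1 change of -0.01 and a tet-control change of 0.81, and behind that of SLC7A5 stand 0.34 and 1.04.

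At 24 h in tet-ZFP36L1, 14 members (35.9%) were lower than at 0 h, where 17% of all genes were, and SESN2 alone (2.56%) was higher, where 11.8% were. With CPM not scaled by TMM, 18.1% of all genes were higher and 12.1% lower, and 12 members were lower. The 14 were GDF15 (-2.83), SLC7A5 (-1.87), SLC6A9 (-1.55), MTHFD2 (-1.42), CEBPB (-1.22), SLC38A2 (-1.20), PSAT1 (-1.15), STC2 (-0.92), DDIT4 (-0.91), SLC7A1 (-0.85), ATF4 (-0.84), CEBPG (-0.77), NARS (-0.69) and SLC1A5 (-0.66), all log2 changes. The induction difference at 24 h was lower in 15 members (38.5%), where 17.4% of all genes were, and higher in 1 (2.56%), SESN2 at 1.18 (0.84 to 1.53), where 13.9% of all genes were. The lowest were GDF15 (-2.17), SLC7A5 (-1.76), MTHFD2 (-1.42), PSAT1 (-1.18), SLC6A9 (-1.16), SLC38A2 (-1.09), ATF5 (-1.02) and CEBPB (-1.01), and ATF5 combined 0.54 in tet-control with -0.48 in tet-ZFP36L1. Without TMM scaling 20.7% of all genes were higher and 12.1% lower, and 11 members were lower. With deposited TPM, 18.9% of all genes were higher and 13.4% lower, with 4 and 13 members.

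By role at 24 h in tet-ZFP36L1, the transporters had a median of -0.85 and the transcription factors -0.77, the effectors -0.03, the synthesis enzymes -0.10 and the synthetases -0.22. The medians of the enzymes and effectors changed sign with CPM not scaled by TMM and with deposited TPM. That of the effectors also did so with TMM factors computed above a mean count of 200. Those of the other 3 roles kept their sign. Of the 7 transporters 5 were counted lower, and of the 9 synthetases 1, where 17% of all genes were (12.1% with CPM not scaled by TMM). All 39 members summed to 3252, 4128 and 2959 TPM at 0, 6 and 24 h in tet-control and to 3347, 3944 and 2639 TPM in tet-ZFP36L1.

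**Figure D4:**
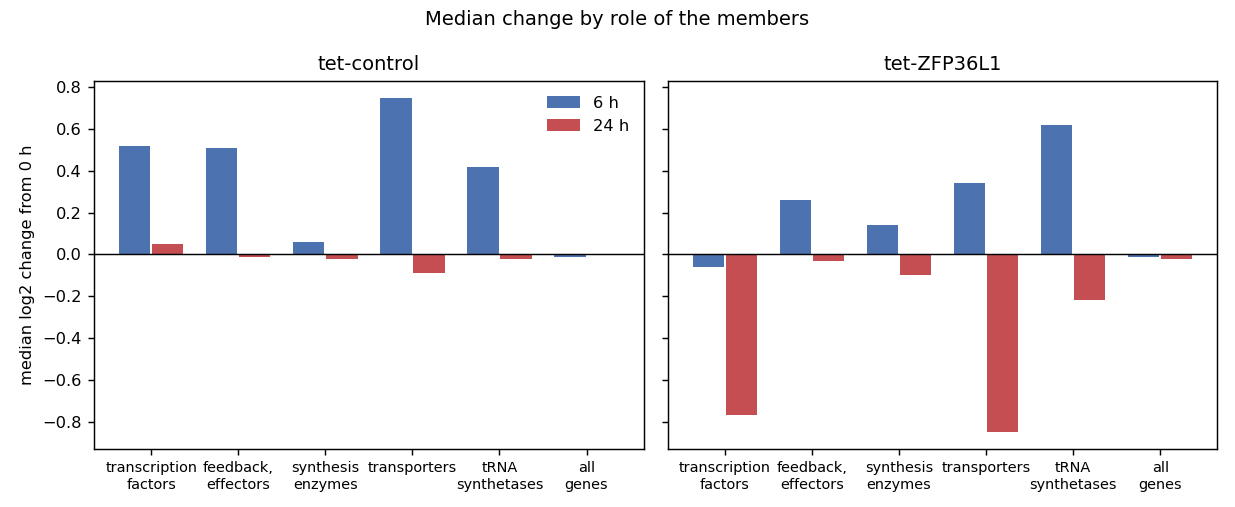
Median log2 change from 0 h (y axis) of the members of each role and of all genes, at 6 h (blue) and 24 h (red), in tet-control (left) and tet-ZFP36L1 (right). Transporters have the tallest 6 h bar in tet-control at 0.75, and transporters and transcription factors the lowest 24 h bars in tet-ZFP36L1 at -0.85 and -0.77.

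Other genes of the pathway were counted by lists. In tet-control at 6 h, 7.47% of all genes were higher and 7.72% lower. The 20 measured eIF2 kinases, eIF2 and eIF2B subunits and regulators included 0 higher and 0 lower in tet-control at 6 h, with a median of 0.11. Their extremes were PPP1R15B (0.49), a constitutive partner of the eIF2 phosphatase, and DNAJC3 (0.37) above, and OMA1 (-0.42) and EIF2AK1 (-0.23) below. Of 25 other ATF4-linked genes, 5 were higher (20%) and 3 lower (12%), with a median of 0.18. SLC7A11, the cystine exchanger, was at 26.5, 67.3 and 26.7 CPM in tet-control and at 28.5, 50.3 and 13.8 CPM in tet-ZFP36L1, a tet-control 6 h change of 1.33. ATF3, a stress-induced transcription factor, was the next highest (0.90), and KLHL24 (-1.16) and LMO4 (-0.93) were lowest. The 11 other cytosolic synthetases had 0 higher and 0 lower with a median of 0.07, from QARS (-0.13) and FARSA (0.02) to YARS (0.44) and HARS (0.52). Of the 17 mitochondrial synthetases, which charge tRNA for translation in mitochondria, 0 were higher or lower, with a median of -0.06, from IARS2 (-0.57) and TARS2 (-0.36) to MARS2 (0.36) and VARS2 (0.38). In tet-ZFP36L1 at 6 h, 3 of the 11 other cytosolic synthetases (27.3%) and 2 of the 17 mitochondrial ones (11.8%) were higher. Of all genes 9.09% were. Their medians were 0.55 and 0.31, against 0.62 for the 9 synthetases of the group and -0.01 for all genes. Above 0 were 9 of the 11 and 15 of the 17, so a change above 0 there was not particular to the 9.

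The 20 other enzymes of amino acid synthesis had 0 higher and 2 lower (10%) in tet-control at 6 h, where 7.47% and 7.72% of all genes were. Their median was -0.24, from ASS1 (-0.90) and ARG2 (-0.87) to ASL (0.48) and MAT2A (0.55). The 12 other amino acid transporters had 1 higher and 1 lower, each 8.33% and near the share of all genes. Their median was 0.21, from SLC1A3 (-0.86) and SLC43A1 (-0.56) to SLC7A6 (0.51) and SLC36A1 (0.71). Endoplasmic reticulum chaperones of the ATF6 and XBP1 branches, the other arms of the unfolded protein response, had 1 of 18 higher (5.56%) and 0 lower. Their median was 0.04, HYOU1 being highest (1.02), then HERPUD1 (0.43), with SDF2L1 (-0.27) and DNAJB9 (-0.17) lowest. The 13 mitochondrial chaperones and proteases had 0 higher and 0 lower, with a median of -0.04, from HTRA2 (-0.48) and TRAP1 (-0.21) to DNAJA3 (0.19) and HSPA9 (0.30). In tet-ZFP36L1 at 24 h, 10 of the 18 endoplasmic reticulum chaperones were lower, with a median of -0.64, where 17% of all genes were lower and their median was -0.02.

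The members with TGATGNAA in the promoter had a median 6 h change of 0.71 (13 members, 0.13 to 1.60) in tet-control, and 21 members with a promoter but without it had 0.36 (-2.12 to 1.04). In tet-ZFP36L1 the values were 0.62 and 0.16. At least 1.5-fold higher at 6 h were 9 of the 13 and 8 of the 21 in tet-control (7.47% of all genes), and 8 of the 13 and 4 of the 21 in tet-ZFP36L1 (9.09% of all genes). For TGATGCAA, the medians with and without it (9 and 25 members) were 0.65 and 0.54 in tet-control, and 0.61 and 0.21 in tet-ZFP36L1. At least 1.5-fold higher were 5 of the 9 and 12 of the 25 in tet-control, and 5 of the 9 and 7 of the 25 in tet-ZFP36L1.

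The sequence TATTTAT, a core of the AU-rich elements bound by the ZFP36 family, was searched on the transcript strand in 3′ UTRs of GENCODE 29 on GRCh38, a search added after values were seen. It was present in 11 of 39 members (28.2%) and in 29% of 10538 genes. The 11 were DDIT3, CHAC1, PPP1R15A, STC2, GDF15, MTHFD2, ALDH18A1, GPT2, SLC7A5, SLC7A1 and SLC38A2. At least 1.5-fold lower in tet-ZFP36L1 at 24 h were 6 of the 11 (54.5%), where 31.7% of all genes with a copy were. Of the 28 members without a copy 8 (28.6%) were, where 11.9% of all genes without a copy were. Members thus stood above the share of all genes both with and without a copy. DDIT3, CHAC1, PPP1R15A, ALDH18A1 and GPT2 hold a copy and were not counted lower. CHAC1 stood at 4.076, 19.08 and 6.224 CPM in that line, and PPP1R15A at 67.91, 76.16 and 86.59 CPM. GDF15 was also lower in tet-control at 6 h, at 8.722 CPM against 39.66 at 0 h. The sites below are from some of the 6, with the match in capitals. They lie at chr19:18389054-18389082 (plus strand) for GDF15, chr2:74214349-74214377 (plus strand) for MTHFD2, chr16:87830273-87830301 (minus strand) for SLC7A5 and chr12:46358784-46358812 (minus strand) for SLC38A2.
GDF15: tataagtctgtTATTTATtattaatttat
MTHFD2: atgatgccttgTATTTATtgaaagcttaa
SLC7A5: ggcaccatgttTATTTATttccagtggtc
SLC38A2: aactgtaatgtTATTTATagaacaacatt
The median induction difference at 6 h was -0.70 in the 11 members with a copy and 0.06 in the 28 without, and in all genes -0.29 and 0.10. Of the 11, 6 were at least 1.5-fold lower, and of the 28, 4 (54.5% and 14.3%), where 27.9% of all genes with a copy and 8.6% of those without were. The own 6 h change in tet-ZFP36L1 had medians of 0.03 and 0.39, and in tet-control of 0.81 and 0.39, so part of the gap between the 2 sets stood in the tet-control change. At 24 h the induction difference was -0.75 and -0.26 in members and -0.28 and 0.06 in all genes. The 3′ UTRs with a copy were longer, with a median of 1035 bases against 569 in members and 2195 against 586 in all genes. The other 8 members that were lower in tet-ZFP36L1 at 24 h, ATF4, CEBPB, CEBPG, DDIT4, PSAT1, SLC1A5, SLC6A9 and NARS, hold no TATTTAT in the 3′ UTR searched.

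Within some members the counts were divided differently among annotated transcripts from library to library, and this division is an uncertain estimate. ASNS-209 held 0.0199% of ASNS counts in tet-control at 0 h, 33.7% at 6 h and 7.88% at 24 h, and 16.2%, 28.7% and 25.0% in tet-ZFP36L1. DDIT3-201 held 50.5%, 78.6% and 29% in tet-control and 75.2%, 90.9% and 46.9% in tet-ZFP36L1. Transcripts annotated for nonsense-mediated decay held 57.5% to 73.4% of SHMT2 counts and 48.2% to 55.6% of SLC38A2 counts over the 6 libraries. Some members share sequence with other genes, so their counts are less certain: 39.1% of 31-base words in MTHFD2 also occur in another gene, 38.3% in DDIT4, 29.7% in ATF4, 23.9% in PYCR1, 23.7% in DDIT3 and 20.5% in ATF5. The main partner of DDIT3 is MARS, with a mean of 6190 counts against 237.7 for DDIT3.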

How the data were processed

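Total RNA of 6 J82 samples was sequenced as bulk RNA-seq, with groups read from sample titles. Tools listed in the submitters' processing notes are kallisto and DESeq2, with the build hg19 and no versions. Each deposited table lists 196354 transcripts with estimated counts, which need not be whole, and deposited TPM, a level per transcript length and depth. The sources used here give neither the strand setting nor the transcript set, and overlapping genes may not be separable.

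By identifier, 181857 transcripts matched GENCODE 29 on GRCh38, and the unmatched ones (5.12% to 5.47% of counts) were left out. Gene totals of the estimated counts were then rounded, and libraries held 19605308 to 20245037 of them. TMM factors came from edgeR 4.0.16 in R 4.3.3, using a mean count minimum of 10. The minimum for a measured gene was 50, and levels were taken as log2(CPM + 0.5), a scale that understates changes of low genes. With 1 library per group there is no spread within a group to test against; a model of line plus time, which would need both lines to respond alike, was left out. The labels do not say how the samples relate. Intervals (95%, delta method) cover counting error only, since reads carry no molecular identifiers. DESeq2 1.42.0 size factors were an alternative. The calculation was tested on simulated data that held counting error only. The simulation had no spread between cultures and no planted change of 1.5-fold, so it does not test the calls on these libraries.

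All members are accounted for, and of each other list the 2 highest and 2 lowest genes in tet-control at 6 h are named. Members and lists were chosen with earlier results of these data known. Promoters are RefSeq's, and 34 of 40 members matched.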

Additional observations from a re-analysis of the deposited data

Results flagged for a closer look

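CEBPB went in opposite directions in the 2 lines at 6 h. Its level was higher than at 0 h in tet-control, at 0.63, and lower in tet-ZFP36L1, at -0.81, which gives an induction difference of -1.44 (-1.62 to -1.26, counting error only) on the log2 scale. The tet-ZFP36L1 line began at 110.4 CPM and tet-control at 29.24 CPM. The difference was not tested, since each line has 1 library at each time.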

How the results depend on the processing

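Each count of members was recomputed under 10 alternatives, and of 140 such values 131 stayed within 1.5 times the count given. The number higher in tet-ZFP36L1 at 24 h, 1 in the report, was 2 with unscaled CPM, with deposited TPM, with a pseudocount of 0.1 and with TMM factors computed above a mean count of 200, and 0 with a pseudocount of 5. The number with a higher induction difference was 4 at 24 h with deposited TPM (1 in the report) and 1 at 6 h with a pseudocount of 5 (2 in the report). The number lower in tet-control was 0 at 24 h with a pseudocount of 5 (1 in the report) and 3 at 6 h with protein-coding transcripts only (1 in the report), and the cause was not tested. Unscaled CPM moved the median of all genes at 24 h in tet-ZFP36L1 from -0.016 to 0.129 and that of the induction difference from -0.019 to 0.15; the members' medians were then -0.22 and -0.21. The median of the members in tet-control at 6 h ranged from 0.41 to 0.50. Of 2730 single-gene values, 246 moved beyond their counting interval and 0 of those counted as higher or lower changed sign. No paired analysis was possible because each group has 1 library, and for the same reason no replicate could be left out. Depth limits CHAC1, DDIT3, CTH, SLC6A9 and, in tet-ZFP36L1, GDF15, whose intervals are the widest.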

Other observations

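IARS2, the mitochondrial isoleucine synthetase, stood apart from the other mitochondrial synthetases. It was at 31, 20.7 and 33.7 CPM in tet-control at 0, 6 and 24 h and at 5.30, 25.7 and 27.6 CPM in tet-ZFP36L1, so that the low value was that of 1 library, tet-ZFP36L1 at 0 h. Its changes in that line, 2.17 at 6 h and 2.28 at 24 h, both rest on that library. HSPA5, the main chaperone of the endoplasmic reticulum, was at 922, 1220 and 902 CPM in tet-control and at 796, 846 and 384 CPM in tet-ZFP36L1. Both genes were chosen after their values were seen.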
